A study of Mus musculus with 15 samples.

Results

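Sugar-handling enzymes of mouse liver were followed on expression microarrays through chemically induced liver cancer and through delivery of the Gas1 gene. The set held 34 of the 22032 gene symbols measured and was taken by gene name. It covered 17 enzymes of glycolysis, 2 genes for bifunctional enzymes that set fructose 2,6-bisphosphate, and 6 enzymes of the pentose phosphate pathway. It also covered 3 enzymes through which ribose, deoxyribose phosphate and fructose enter these pathways, and 6 genes grouped under glycogen synthesis and breakdown. All 34 names were found, through 52 probes, with 1 probe for 25 of them. The signal was well above background on all 15 arrays for 28 of the genes. The exceptions were Hk2 (1 array), Pgm1 (2 arrays), Hk3 (5 arrays), Pfkp (10 arrays), Rpia (12 arrays) and Pfkfb3 (14 arrays).

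The animals were male CD1 mice, an outbred strain. Group C received saline and, by hydrodynamic gene delivery, the empty plasmid. Group T received the carcinogen diethylnitrosamine (DEN), 25 μg per g of body weight at day 15 after birth, and the same empty plasmid, whereas group G received DEN and a plasmid that carries HA-tagged Gas1 under the ubiquitous CAG promoter. Every group was therefore exposed to the rapid tail vein injection of 50 μg of plasmid, given weekly from week 28 to week 34, with sacrifice at week 35. The sample labels instead give an age of 10 weeks. By the study's methods the injection reaches only part of the liver cells, mostly those beside vessels. In RNA from liver tissue, fewer cells of a type and less RNA per cell cannot be told apart. The arrays numbered 4 in C, 5 in T and 6 in G. As 2 arrays of C and 2 of T carry the same RNA code, they were averaged, which left 3, 4 and 6 mice. Nothing states that the remaining RNAs came from separate animals, so p-values measure the spread between these samples.

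Glycolysis splits glucose into pyruvate, and the pentose phosphate pathway diverts glucose 6-phosphate to make NADPH and ribose 5-phosphate. Hepatocytes hold isozymes suited to taking up and releasing glucose, such as liver phosphofructokinase (Pfkl), liver pyruvate kinase (Pklr), liver glycogen phosphorylase (Pygl), liver glycogen synthase (Gys2) and the transporter GLUT2 (Slc2a2). Liver tumours are known to exchange some of them for forms found in fetal tissue, brain or muscle, such as hexokinase 2 (Hk2), aldolase A (Aldoa), the M2 form of pyruvate kinase and GLUT1 (Slc2a1).

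Levels are log2 intensities after background correction and quantile normalization, and differences are log2 differences between group means ± SE. A gene is said to have risen or fallen where limma gave a Benjamini-Hochberg adjusted p under 0.05 over all 22032 genes. Spots well above background numbered from 15707 to 27681 per array in C, from 19970 to 22638 in T and from 18041 to 29765 in G. These counts overlapped between the groups. The hepatocyte markers (Alb, Apoa1, Ttr and 4 others) were well above background on all arrays. All 8 skeletal muscle markers, among them Ckm and Acta1, were highest in mouse 6 of group G, with a summed level over the 6 measured in every mouse of 14.25 against 8.70 to 8.94 in the other 12 mice. Results that rest on that mouse are given with and without it. The 3 Gas1 probes on the array read between 5.95 and 7.39 in all mice, and Gas1 differed by 0.08 ± 0.08 between G and T (limma adjusted p = 0.765). Whether those probes lie within the plasmid insert was not tested.

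In the livers of group T, 5 of the 34 genes fell below group C and none rose. They were Pgk1 and Eno1 of glycolysis, Pgd of the pentose phosphate pathway, Gbe1 of glycogen synthesis and Dera, a deoxyribose-phosphate aldolase. The share of 14.7% compares with 2.37% among all genes and 3.96% among the 8493 genes well above background on every array. The share of all genes that fell was 1.2%. The mean was lower in T for 28 of the 34, and the median difference was -0.21 against 0.01 for all genes. The mice of T and C did not overlap for 11 of the genes, against 19.1% of all genes, and 10 of the 11 were lower in T, against 8.72% of all genes. Among the 8493 genes these shares were 22.9% and 11.4%. The 10 include Pgls (1 C and 2 T mice measured), Pgam1, Eno1 and Pfkfb1, which lack a value in some mice. Groups of fewer mice are more easily free of overlap. The direction of the whole set, and of Pgk1, Pgd and Gbe1, turned when arrays were scaled on the median of all spots.

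**Figure D1:**
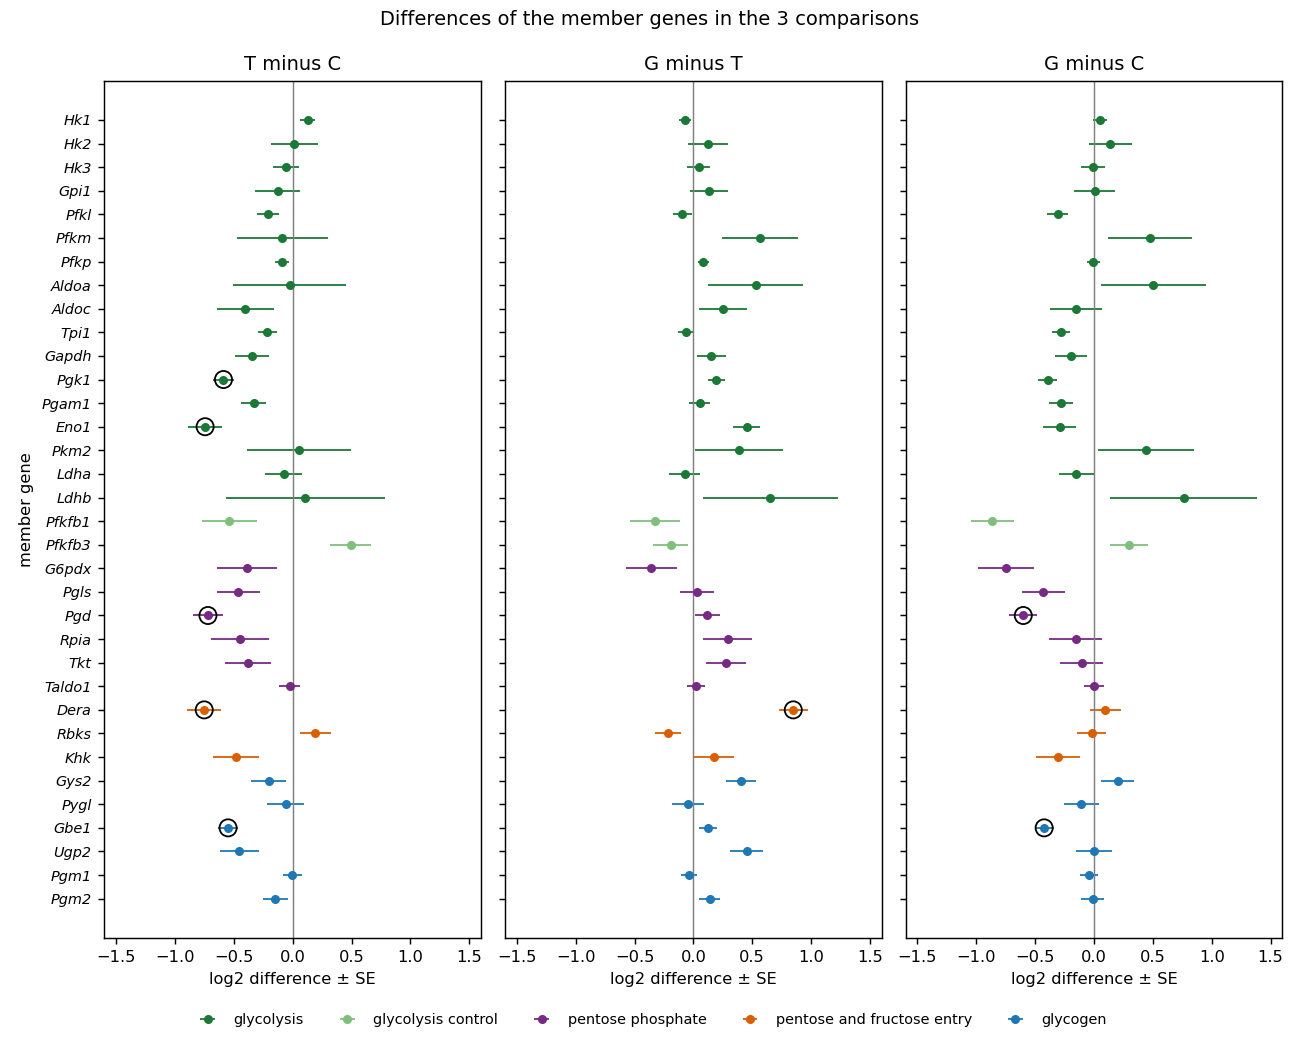
Log2 difference of each of the 34 genes in the 3 comparisons, with bars of 1 SE from limma and colours by pathway; a ring marks an adjusted p under 0.05. Rings lie to the left of 0 for 5 genes in T minus C, to the right for Dera alone in G minus T, and to the left for Pgd and Gbe1 in G minus C.

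The proximal promoters of 4 of the 5 genes that fell in T are shown because the genes moved together. They come from RefSeq (GRCm38.p6) and run from 250 bases before to 50 bases after an annotated start, on the strand of the gene. Where a gene has several starts, the most upstream is given. Capitals mark the motifs that were searched on both strands: the E-box CACGTG, read by clock, Myc and carbohydrate-response factors; ACGTG and GCGTG, which hold the core read by hypoxia-inducible factors; and TGACNNNGC, the core of the antioxidant response element. ACGTG overlaps the E-box.
Pgk1 (chrX:106186850-106187149, plus strand): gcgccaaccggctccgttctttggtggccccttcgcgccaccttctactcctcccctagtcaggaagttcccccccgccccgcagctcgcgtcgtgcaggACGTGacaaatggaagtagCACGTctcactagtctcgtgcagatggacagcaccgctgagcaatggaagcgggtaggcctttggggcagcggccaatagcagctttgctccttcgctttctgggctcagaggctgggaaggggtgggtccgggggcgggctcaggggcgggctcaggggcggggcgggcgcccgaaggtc
Eno1 (chr4:150236458-150236757, plus strand): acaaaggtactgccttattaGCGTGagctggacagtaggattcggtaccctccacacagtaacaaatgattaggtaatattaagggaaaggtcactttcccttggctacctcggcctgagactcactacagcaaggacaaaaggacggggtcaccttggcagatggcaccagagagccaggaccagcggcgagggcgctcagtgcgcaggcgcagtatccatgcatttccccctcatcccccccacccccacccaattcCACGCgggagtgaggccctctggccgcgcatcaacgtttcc
Pgd (chr4:149166656-149166955, minus strand): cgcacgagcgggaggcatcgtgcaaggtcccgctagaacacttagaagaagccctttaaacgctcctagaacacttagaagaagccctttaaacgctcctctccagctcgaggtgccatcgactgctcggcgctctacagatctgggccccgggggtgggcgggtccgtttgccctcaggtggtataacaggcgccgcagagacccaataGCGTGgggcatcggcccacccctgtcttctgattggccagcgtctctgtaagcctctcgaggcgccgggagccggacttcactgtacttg
Gbe1 (chr16:70313699-70313998, plus strand): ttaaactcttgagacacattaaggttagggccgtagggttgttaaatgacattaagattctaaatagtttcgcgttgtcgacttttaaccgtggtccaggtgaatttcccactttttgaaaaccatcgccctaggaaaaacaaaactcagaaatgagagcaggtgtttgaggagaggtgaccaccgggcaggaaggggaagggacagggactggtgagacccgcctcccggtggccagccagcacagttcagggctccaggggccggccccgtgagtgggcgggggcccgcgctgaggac
The window of Pgk1 holds ACGTG in both orientations, that of Eno1 holds GCGTG in both, the window of Pgd shown holds it once, and that of Gbe1 holds none of the motifs. The other window of Pgd holds TGACNNNGC once and no GCGTG, and both other windows of Eno1 hold GCGTG, as the one shown does. None of the 4 has an E-box. Their G and C content was 66.7%, 57.0%, 60.7% and 54.3%, against a median of 52.7% over all 32851 such windows. Among the 32 members with a window, 18 (56.2%) held ACGTG and 21 (65.6%) held GCGTG in at least 1 window, against 21.8% and 35.2% of all 27025 genes with a window. The E-box was found in 4 members (12.5%) against 8.09% of genes, and the antioxidant core in 6 (18.8%) against 14%. These are counts of letters, and nothing on binding can be read from them. Neither base composition nor the number of windows per gene was matched.

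Phosphoglycerate kinase 1 (Pgk1), which makes the first ATP of the lower part of glycolysis, gave the lowest p of the set in T against C. It read 12.30, 12.003 and 12.16 in the C mice, 11.72, 11.57, 11.51 and 11.47 in the T mice, and from 11.66 to 11.97 with a median of 11.72 in G. Every T mouse lay under every C mouse, and so did every G mouse. The difference of T from C was -0.59 ± 0.09, or 0.665 of the C level (limma adjusted p = 0.0112). G did not differ from C at the threshold (-0.39 ± 0.08, limma adjusted p = 0.0552), and lay 0.19 ± 0.07 above T (limma adjusted p = 0.361). The files place its only probe on chromosome 3 (chr3:57906830-57906894, mm9), whereas RefSeq puts the gene on the X chromosome. Whether it reads another copy of the gene was not tested.

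Enolase 1 (Eno1) forms phosphoenolpyruvate. Its level was 13.14 and 12.82 in the C mice with a usable spot and 12.20, 11.99, 12.29 and 12.47 in T. It read 12.81, 12.78, 12.49 and 12.69 in the 4 measured G mice, between the other groups and without overlap with either. Eno1 fell by 0.74 ± 0.14 in T (limma adjusted p = 0.0327), to 0.597 of the C level. The rise from T to G, 0.45 ± 0.12, missed the threshold (limma adjusted p = 0.182). Without mouse 1 of C the T difference was -0.58 (limma adjusted p = 0.18), and leaving out C mouse 2, T mouse 2 or T mouse 3 also took it past 0.05 (0.0597, 0.0604 and 0.0837), with differences of -0.74, -0.66 and -0.76. C mouse 2 has no usable spot for Eno1 itself.

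Phosphogluconate dehydrogenase (Pgd), the second NADPH-producing step of the pentose phosphate pathway, read 9.34, 9.51 and 9.14 in C, against 8.58, 8.64, 8.38 and 8.85 in T. In G it ranged from 8.54 to 9.0 with a median of 8.70. Both DEN groups lay wholly below C. The difference was -0.72 ± 0.13 in T (limma adjusted p = 0.0183) and -0.60 ± 0.12 in G (limma adjusted p = 0.0494). The G call was lost without 10 of the 13 mice taken singly, with a difference of -0.51 to -0.70 over the 13 fits, and the T call without C mouse 1, C mouse 2 or T mouse 3 (limma adjusted p from 0.0523 to 0.0667).

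The other genes of the oxidative branch pointed the same way without a call. Glucose 6-phosphate dehydrogenase (G6pdx), which commits glucose to the pathway, read 8.15, 7.98 and 8.08 in C, 7.17, 8.48, 7.32 and 7.75 in T, and 7.07 to 7.73 in G with a median of 7.25. Mouse 2 of T was above every C mouse, while all 6 G mice were below. The differences were -0.39 ± 0.26 for T and -0.75 ± 0.24 for G (limma adjusted p = 0.441 and 0.200). The lactonase Pgls, with a usable spot in only 1 C, 2 T and 2 G mice, gave -0.46 ± 0.18 in T. In the non-oxidative branch, Rpia, Tkt and Taldo1, which interconvert sugar phosphates, differed from C by -0.45 ± 0.25, -0.38 ± 0.20 and -0.03 ± 0.09 in T. All 6 members of the pathway thus had a lower mean in T, and all 6 also in G. Of 7 further pentose phosphate genes, 4 had a higher mean in T and 3 a lower one, and none was called, with 2 at an unadjusted p under 0.05. These were H6pd, the dehydrogenase of the endoplasmic reticulum, at 0.36 ± 0.13 and Shpk, which phosphorylates sedoheptulose, at -0.39 ± 0.12 (limma adjusted p = 0.157 and 0.107), both without overlap.

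Branching enzyme (Gbe1) adds the branch points of glycogen. It was 11.15, 10.98 and 10.95 in C, 10.35, 10.39, 10.63 and 10.54 in T, and between 10.39 and 10.74 in G with a median of 10.62. No mouse of T or G reached the lowest C mouse. Gbe1 fell by 0.55 ± 0.09 in T (limma adjusted p = 0.0125) and by 0.42 ± 0.08 in G (limma adjusted p = 0.0486). Leaving out C mouse 1 ended the T call (limma adjusted p = 0.0517), and 10 of 13 such fits ended the G call, with differences of -0.36 to -0.46 over all 13. Of the remaining glycogen genes, Ugp2, which makes UDP-glucose, read 10.34, 10.40 and 10.36 in C and 10.03, 9.51, 10.04 and 10.06 in T, then 10.12 to 10.84 in G. T lay below both other groups without overlap, though neither difference passed the test (-0.45 ± 0.17 from C, limma adjusted p = 0.155; 0.45 ± 0.14 for G against T, limma adjusted p = 0.250). Glycogen synthase 2 (Gys2), which lengthens the chains, read 10.02, 9.88 and 9.87 in C, 9.74, 9.45, 9.87 and 9.80 in T, and 9.66 to 10.38 in G with a median of 10.20. All groups overlapped, with a difference of 0.41 ± 0.13 for G against T (limma adjusted p = 0.254). The overlap of G with T rests on mouse 6 of G, at 9.66. The other G mice, from 9.98 upward, lay above every T mouse. Without mouse 6 the difference was 0.50 ± 0.10, also without a call (limma adjusted p = 0.0735). Pygl, which releases glucose 1-phosphate, and Pgm1 and Pgm2, both named for phosphoglucomutase, differed from C by -0.06 ± 0.16, -0.00 ± 0.08 and -0.15 ± 0.11 in T. Pgm1 and Pgm2 are the names of the array design, and RefSeq now gives each of these genes the name of the other.

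Dera cleaves deoxyribose 5-phosphate, a product of nucleoside breakdown, into glyceraldehyde 3-phosphate and acetaldehyde. It was the only gene of the set called between G and T. Its level was 7.77, 7.71 and 7.04 in C, 6.80, 6.85, 6.71 and 6.66 in T, and 7.50 to 7.85 in G with a median of 7.56. All T mice lay below all C and all G mice, and the G mice lay within the range of C but for mouse 6 at 7.85. Dera fell by 0.75 ± 0.14 in T (limma adjusted p = 0.0230) and was 0.85 ± 0.12 higher in G than in T (limma adjusted p = 0.0345), a ratio of 1.80. Among all genes, 29 (0.132%) were called in that comparison, 7 of them (0.0318%) higher in G. G and C differed by 0.10 ± 0.13 (limma adjusted p = 0.809). As both calls share the T mice, they are not independent. The T call was lost without C mouse 1, C mouse 2, T mouse 3 or T mouse 4 (limma adjusted p from 0.0685 to 0.0886). The G call was lost without G mouse 1, 2, 3 or 5 or T mouse 2, 3 or 4 (limma adjusted p from 0.0508 to 0.108), although the difference stayed between 0.80 and 0.88 in all 13 such fits. The single Dera probe lies on chromosome 6 (chr6:137786190-137786249, plus strand, mm9) and was well above background on every array. Within each slide alone the G difference was 0.86 ± 0.17 and 0.85 ± 0.18, and the T difference -0.63 ± 0.18 and -0.65 ± 0.21. The slides are not independent, because the C mouse and the T mouse with 2 arrays had 1 array on each slide.

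**Figure D2:**
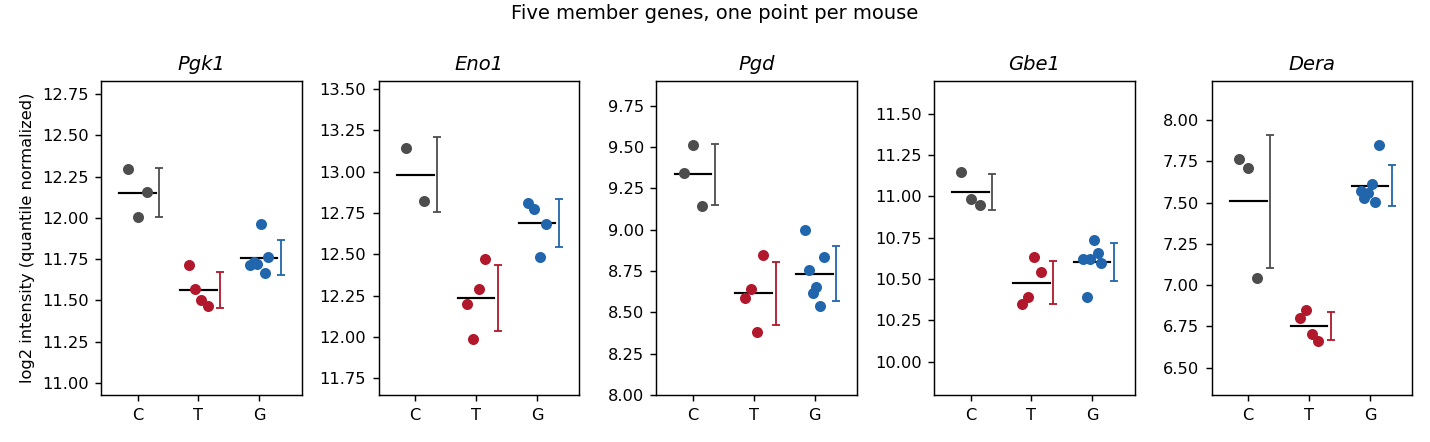
Log2 intensity of the 5 genes called in T against C, 1 point per mouse, with the group mean as a black line and the SD as a bar beside it; all panels span the same log2 range. For Dera the 4 T mice sit between 6.66 and 6.85 and the 6 G mice between 7.50 and 7.85, while for Pgk1, Pgd and Gbe1 the G mice stay below every C mouse.

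Ribokinase (Rbks) and ketohexokinase (Khk), which phosphorylate ribose and fructose, moved apart in T, by 0.19 ± 0.13 and -0.48 ± 0.20, with neither past the threshold (limma adjusted p = 0.462 and 0.203). The rest of glycolysis gave no call. From C to T, Pgam1, Gapdh, Tpi1 and Pfkl differed by -0.33 ± 0.10, -0.35 ± 0.14, -0.22 ± 0.08 and -0.21 ± 0.10, and each had an unadjusted p under 0.05. In G, Tpi1, the triose phosphate isomerase, gave -0.28 ± 0.08 against C (limma adjusted p = 0.135). The 4 genes just named were among 13 members with such a p in T against C, or 38.2%. This compares with 20.2% of all genes and 26.8% of those well above background on every array. The 8 Gapdh probes ranged from -0.68 to 0.19 and the 3 Ldha probes from -0.36 to 0.32, so the probes of these genes disagreed in sign. Hexokinase 1 (Hk1) differed by 0.13 ± 0.06 (limma adjusted p = 0.275). Hk2, Hk3 and Pfkp, not well above background on most or several arrays, differed by 0.01 ± 0.20, -0.05 ± 0.11 and -0.09 ± 0.06.

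The bifunctional enzymes Pfkfb1, the liver form, and Pfkfb3, the inducible form, opposed each other. Pfkfb1 read 9.62, 9.65 and 9.76 in C and 8.84 and 9.44 in the 2 T mice with a usable spot, and 8.39 to 9.29 with a median of 8.82 in 5 G mice. Pfkfb3 read 6.46, 6.47 and 6.31 in C and 6.58, 6.84, 6.91 and 7.30 in T. Both pairs of groups were free of overlap, yet neither difference was called (-0.54 ± 0.23 and 0.49 ± 0.17, limma adjusted p = 0.232 and 0.145). In G the Pfkfb1 difference from C was -0.86 ± 0.19, or 0.550 of the C level (limma adjusted p = 0.0914).

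Against C, the G livers had 2 calls among the 34 genes, Pgd and Gbe1, both lower. In all, 0.427% of genes were called, and 0.263% were lower. The mean of G was lower for 24 members, with a median difference of -0.07. Without overlap 9 were lower, against 3.12% of all genes and 5.75% of those well above background on every array. The 9 again include Pgls, Pgam1, Eno1 and Pfkfb1, which lack a value in some mice. From T to G the mean was higher for 24 members (median 0.12). Eno1, Dera and Ugp2 were higher without overlap, against 1.1% of all genes and 1.57% of those well above background on every array. G against T and T against C share the T mice, so a lower T mean enters both with opposite signs.

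The scaling of the arrays bears on most of these directions, that of Dera excepted. Across the 34 genes the median T difference was -0.22, -0.19 and -0.19 with a normexp offset of 16, with cyclic loess and in the deposited value table. When arrays were instead scaled on the median of all spots it was 0.54, only 4 of the genes had a lower mean in T, and 3 members were called higher (Ldha at 0.95, limma adjusted p = 0.0384). The genes well above background on all arrays then had a median of 0.65, so the set lay at -0.11 relative to them. Scaling on the median of bright spots gave -0.20 for the set and -0.11 for the bright genes, and the processed signal at the 75th percentile gave -0.25 and 0.09. Relative to bright genes, then, the set was lower in T under each of the 7 scalings, at -0.09 to -0.34, and from 21 to 28 of its genes lay under that median. For G against C the same distance ran from -0.13 to 0.01. It was 0.005 under the median of all spots and 0.004 under that of bright spots. Under the median of all spots, Pgk1, Pgd and Gbe1 turned to 0.39, 0.16 and 0.45 in T without a call, while Dera went to -0.21 ± 0.13 and Eno1 to -0.04 ± 0.33, also without a call (limma adjusted p = 0.306 and 0.957).

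**Figure D3:**
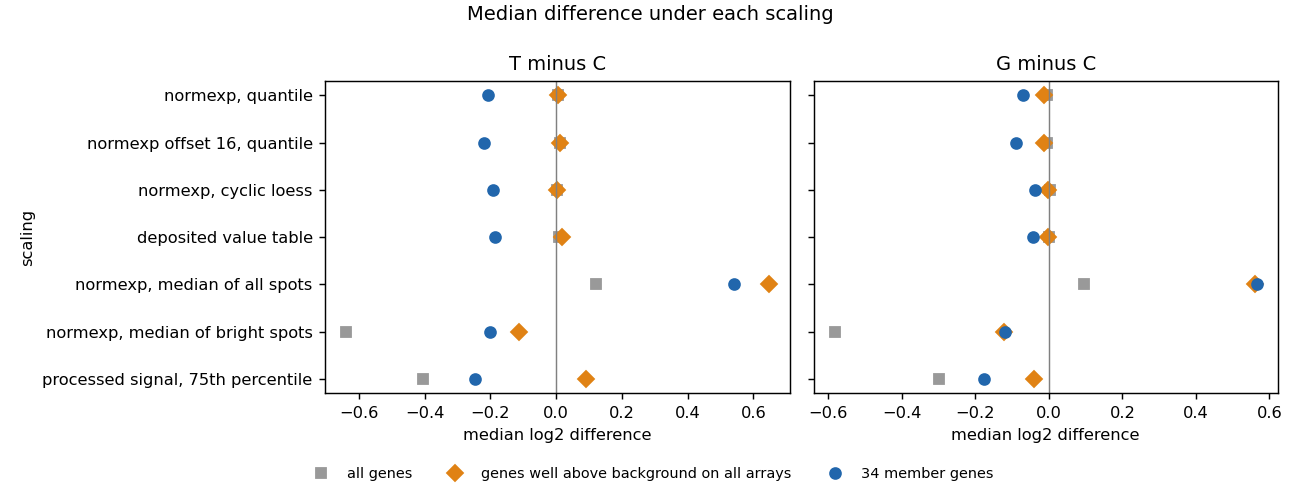
Median log2 difference of the 34 genes (circles), of all 22032 genes (squares) and of the 8493 genes well above background on every array (diamonds) under 7 scalings of the arrays, for T minus C and G minus C. In T minus C the circle lies to the left of the diamond in each row, whereas its place relative to 0 changes with the scaling; in G minus C circle and diamond coincide under both median scalings.

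Mouse 6 of group G stood apart in 5 members, some of them isozymes typical of muscle. Lactate dehydrogenase B (Ldhb) read 10.44 there against 6.50 to 7.34 in the other 12 mice. Aldolase A read 14.33 against 11.69 to 12.16, the muscle phosphofructokinase Pfkm 10.44 against 8.20 to 8.74, and the pyruvate kinase gene listed as Pkm2 9.60 against 7.16 to 7.67. Hexokinase 2 read 6.92 there, and at most 6.10 elsewhere. These 5 members exceeded the next mouse by more than 0.5, as did 199 of all genes, and 8 members were highest in this mouse. Ldha was not among the 8, at 12.32 against 11.96 to 12.66 in the other 12 mice. The Pkm2 probe serves the gene now called Pkm and is not known here to separate its M1 and M2 forms.

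The muscle markers moved with these isozymes. In mouse 6 Ckm was 10.85 against at most 6.21 in the others, Acta1 13.46 against at most 7.48, and the muscle forms Eno3, Pgam2 and Pygm 11.71, 11.13 and 9.91 against at most 7.65, 6.27 and 7.39. Without this mouse the G against T differences of Ldhb, Aldoa, Pfkm, Pkm2 and Hk2 went from 0.65, 0.53, 0.57, 0.39 and 0.12 to 0.09 ± 0.13, 0.13 ± 0.11, 0.25 ± 0.09, 0.03 ± 0.11 and -0.04 ± 0.05. None was called with or without it. In T against C that mouse enters only the spread shared by the groups. There the 5 differences without it were 0.11 ± 0.15, -0.02 ± 0.12, -0.09 ± 0.11, 0.05 ± 0.13 and 0.01 ± 0.06, none of them called. With it, their SE ran from 0.20 to 0.68. The part of muscle RNA in these values was not tested. Dera was called in G against T without this mouse too (0.80 ± 0.12, limma adjusted p = 0.0416), whereas the Gbe1 call in G against C was lost (limma adjusted p = 0.0529).

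**Figure D4:**
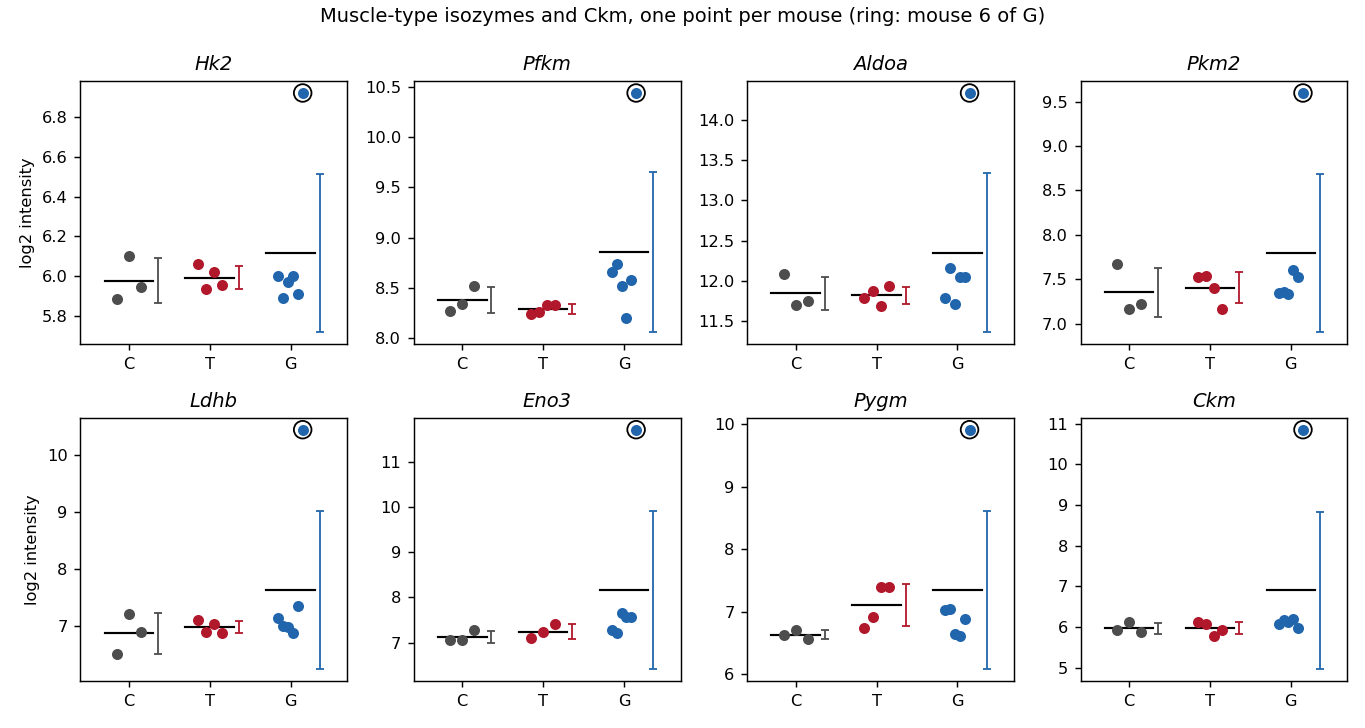
Log2 intensity of 5 members and of the muscle genes Eno3, Pygm and Ckm, 1 point per mouse, with group means (black lines) and SD (bars); a ring marks mouse 6 of G. The ringed mouse is the highest in every panel, at 10.44 for Ldhb and 10.85 for Ckm.

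Isozyme exchange was examined as the log2 difference between the tumour or extrahepatic form and the liver form within each mouse, and 8 pairs are described. Since the genes have different probes, only changes of this difference between groups can be read. From C to T it was higher for all 8 pairs, 2 of which share Pfkl. The first genes Pfkp, Gys1 and Pygb were dim, at no more than 6.31, 6.30 and 6.78 in C and T. Gys2 itself differed by -0.21 in T, beside 0.22 for its pair, whereas Pygl differed by -0.06, beside 0.47. A higher difference therefore need not mean a rise of the first gene. Unadjusted p was under 0.05 in 1 comparison of G with T and 1 of G with C, and in 3 and 3 without mouse 6 of G, yet none passed with or without it an exact two-sided permutation test after Benjamini-Hochberg adjustment over the 39 tests made, with a lowest adjusted p of 0.0995. Gys1 less Gys2 was -0.27 in G against T with that mouse and -0.51 without it (exact permutation p = 0.433 and 0.00794). Gys2 alone was 0.50 higher in G than in T without it. With 4 against 3 mice the smallest p is 0.0286, and with the 2 T mice of Pfkfb3 less Pfkfb1 it is 0.1. Adjusted over 39 tests, a p of 0.0286 passes only if many other tests are as low. For T against C the lack of a pass therefore cannot decide whether isozymes changed. Under the median of all spots, 4 of the 8 pairs were higher in T, so this direction too depends on the scaling.

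For pyruvate kinase (Pkm2 less Pklr) the difference was -1.66, -2.01 and -1.68 in C and -0.39, -0.21, -0.44 and -1.56 in T. The groups did not overlap, with a change of 1.14 (exact permutation p = 0.0571, adjusted 0.193). Pklr itself was 9.33, 9.18 and 8.90 in C and 7.92, 7.75, 7.83 and 8.72 in T (-1.08 ± 0.32, limma adjusted p = 0.0907), while Pkm2 differed by 0.05 ± 0.44. The glucose transporters (Slc2a1 less Slc2a2) went from -4.24, -4.29 and -3.80 in C to -3.79, -2.87, -3.42 and -3.25 in T and to between -4.62 and -3.79 in G. The difference of G from T was -0.83 (exact permutation p = 0.00952, adjusted 0.0995).

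Pfkfb3 less Pfkfb1 was higher by 1.12 in G than in C, without overlap (exact permutation p = 0.0179, adjusted 0.0995). Pfkm less Pfkl was 0.66 higher in G than in T with mouse 6 and 0.35 higher without it, free of overlap either way. From C to T, Pfkp less Pfkl, Ldhb less Ldha, Gys1 less Gys2 and Pygb less Pygl changed by 0.12, 0.19, 0.22 and 0.47. All 4 overlapped (exact permutation adjusted p from 0.248 to 0.688). Ldha was counted as the liver form.

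**Figure D5:**
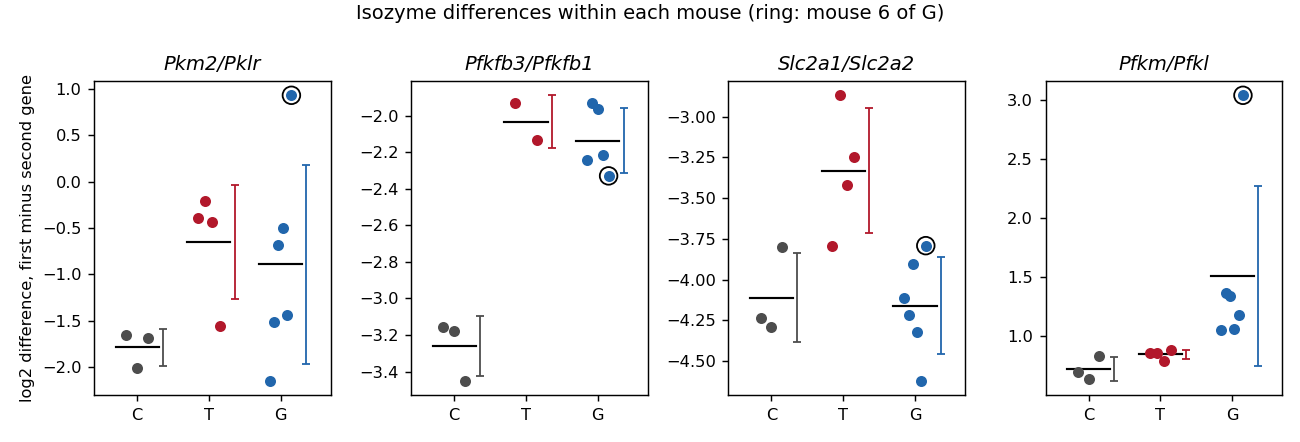
Log2 level of the first gene less that of the second in each mouse for 4 isozyme pairs, with group means (black lines) and SD (bars); a ring marks mouse 6 of G. Pkm2 less Pklr is higher in all 4 T mice than in C, and the ringed mouse stands apart for Pfkm less Pfkl.

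Among 81 further genes of these pathways, 2 rose and 3 fell in T (6.17%). The 3 that fell were among 9 genes of the pyruvate dehydrogenase complex and its kinases and phosphatases. They were Dlat, a subunit of the complex, and the kinases Pdk1 and Pdk4. Their differences were -0.76 ± 0.14, -0.81 ± 0.18 and -1.84 ± 0.41 (limma adjusted p = 0.0199, 0.0408 and 0.0400). These calls were lost in 4, 7 and 7 of the 13 fits that left out 1 mouse, while the differences stayed at -0.66, -0.65 and -1.55 or lower. All 3 calls were also lost with the processed signal, with the median of all spots and with cyclic loess. At the weakest alternative the differences of Dlat, Pdk1 and Pdk4 were -0.12, -0.19 and -1.14. Pdk4 read 9.30, 8.38 and 8.48 in C and 7.54, 6.43, 6.65 and 6.89 in T. The inducible Pfkfb4 and the brain glycogen phosphorylase Pygb rose by 0.30 ± 0.06 and 0.41 ± 0.10 (limma adjusted p = 0.0301 and 0.0487), both at levels between 5.87 and 6.78, and both were lower in T under the median of bright spots (-0.46 and -0.28). Hk2, at a mean level of 6.03, was well above background on only 1 array. The C level of Pfkfb4, 5.91 to 5.93, is thus near the floor. The Pfkfb4 call was lost in 5 of 13 such fits (0.27 to 0.34) and the Pygb call in 10 (0.33 to 0.50). The limma fit gave no call in any comparison among the 8 gluconeogenesis genes (3 with an unadjusted p under 0.05 in T) or the 7 regulators, such as Hif1a and Mlxipl (0 in T). Limma called none of the 81 in G against T or in G against C, where 12 and 20 had an unadjusted p under 0.05.

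Other markers moved with the groups. Clock output genes were far higher in the DEN livers. Dbp read 7.04, 8.27 and 7.08 in C and 9.37 to 11.99 in T, and 4 of 14 clock genes (Dbp, Tef, Nr1d1 and Nr1d2) rose in T, while Arntl was 1.04 lower (limma adjusted p = 0.0684). Many enzymes of sugar metabolism, Pdk4 among them, are known to follow the daily cycle and feeding, and the time of death is not given in the sources used here. The 4 erythroid markers measured in every mouse summed to between 11.74 and 13.37 in C, 13.75 and 14.36 in T, and 12.48 and 15.20 in G. The macrophage marker Emr1 rose by 0.31 ± 0.06 and the hepatocyte marker Ttr fell by 1.00 ± 0.12 in T (limma adjusted p = 0.0267 and 0.00425), the only calls among 7 hepatocyte and 8 macrophage markers. The Emr1 call was lost in 4 of the 13 fits without 1 mouse and the Ttr call in 0. Under the median of bright spots Emr1 turned to -0.44, and under the median of all spots Ttr turned to 0.18. Limma called none of the neutrophil, lymphocyte, endothelial, stellate, cholangiocyte, erythroid, muscle, pancreas or proliferation markers in T, where 2, 2, 1, 1, 3, 4, 0, 0 and 1 of them had an unadjusted p under 0.05. The part of clock phase, blood or cell makeup in the results above was not tested. Each slide held arrays of all groups. The C mouse and the T mouse with 2 arrays were on both slides, so the slides are not independent. The T differences of Pgk1, Eno1, Pgd and Gbe1 ran from -0.58 to -0.50 within the first slide and from -0.68 to -0.53 within the second. Limma called no member on either slide alone, where 7 and 13 members had an unadjusted p under 0.05.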

How the data were processed

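Liver RNA of CD1 mice was hybridised to 15 single-colour Agilent arrays, and the probe positions in the files are those of mm9. The deposited scanner files hold spot intensity values from Agilent Feature Extraction 10.7.3.1, as mean signal, median background and processed signal. The authors also deposited a value table on the log2 scale, which their methods describe as normexp-corrected and quantile-normalized. It served as an alternative and differed from the values used here by a median of 0.00268. The labels name TRIzol for RNA extraction, whereas the methods name a spin-column kit.

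Here, background was removed from the mean signal by normexp with an offset of 50, using all 62976 spots for the fit. After the 3671 control spots were dropped, the log2 values of the 59305 others were brought to common quantiles. Outlier spots were left out (218 to 3692 per array). Spots were averaged per probe, and 29522 probes were centred and averaged into 22032 gene symbols of the array design. Arrays with the same RNA code were averaged. Groups, taken from the labels, were compared with limma 3.58.1 (lmFit and eBayes, R 4.3.3) in 1 model of 13 mice, with Benjamini-Hochberg adjustment over all genes. A gene missing in some mice was fitted on the rest. Isozyme pairs were compared by exact two-sided permutation tests, adjusted over 39 tests (13 pairs, of which some are not reported here). On data simulated from these mice for T against C (20431 genes, 200 changed), 92% of changes of log2 size 1 and 99% of size 2 were recovered. No smaller change was simulated, and every called member differed by less than 1. Recovery at the sizes seen in the members was therefore not measured. The number of arrays limits the precision, and no spot was saturated.

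The gene set, the further pathway genes and the marker lists were chosen with earlier results of these data known. By rule, the text gives per mouse the called members, the 5 members of lowest p in each comparison and isozyme pairs, and names called genes of the other lists. Some of these, among them most isozyme pairs, are given by group differences only. G6pdx, Pfkfb3, Pdk4 and Dbp were given per mouse, and Arntl was named, after their values were seen. Alternatives were other background corrections, scalings and filters, another rule for probes, arrays kept separate, the slide as a term or alone, the methods' t-test, a replicate block and leaving out each mouse.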

Additional observations from a re-analysis of the deposited data

Results flagged for a closer look

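In 8 of 63 groups of 4 to 6 mice, the highest or lowest mouse lay farther from the nearest other mouse than Dixon's 95% limit allows, where chance gives about 1 group in 20. Mouse 6 of G accounted for 6 of them. It read 6.92 for Hk2 (next mouse of the group 6.0), 10.44 for Pfkm (8.74), 14.33 for Aldoa (12.16), 9.60 for Pkm2 (7.61), 10.44 for Ldhb (7.34) and 7.85 for Dera (7.61). Mouse 4 of G read 11.97 for Pgk1, with the next at 11.76. Mouse 2 of T read 9.51 for Ugp2, below the other T mice at 10.03 or more.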

How the results depend on the processing

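The number of members called in T against C (5) ranged from 1 to 5 when each mouse was left out in turn, and in G against T (1) and G against C (2) from 0 to 1 and from 0 to 2. Over all genes these ranges were 95 to 746 (523 with all mice), 4 to 117 (29) and 8 to 202 (94), and no isozyme pair passed (0 to 0). In T against C the count of members fell to 1 without C mouse 1 and 2 without C mouse 2 or T mouse 3, and that of all genes to between 95 and 121, to 200 without T mouse 2 and to 140 without T mouse 4. The G against T call was lost without G mouse 1, 2, 3 or 5 or T mouse 2, 3 or 4. Both G against C calls were lost without any 1 of these mice other than G mouse 1, or without C mouse 1 or 2, while Gbe1 alone was lost without G mouse 1 or 6 and Pgd alone without G mouse 4 or T mouse 1, where Pgk1 was called in its place. In T against C, members called numbered 0 with the processed signal, on slide 1, on slide 2 and by the methods' t-test in both forms (6, 7, 13, 10 and 8 with an unadjusted p under 0.05), and 3 with median scaling. Genes called there numbered 1949 with 15 arrays, 57 with the processed signal, 2876 with median scaling (15 lower, against 264 lower of 523), 186 with cyclic loess, 12891 with scaling on bright spots (chosen after seeing the data), 814 with the slide as a term, 46 and 17 within slides and 0 by either t-test (3827 and 2954 unadjusted). In G against T no member was called with the processed signal, bright-spot scaling or either slide (2, 4, 7 and 7 unadjusted), and genes called numbered 268 (15 arrays), 3 (processed signal), 8 (median), 78 (dim probes left out), 2 (bright spots), 75 (slide term), 7 and 4 (slides), 5 and 1 (t-tests) and 15 (variance trend). In G against C, members called numbered 4 with 15 arrays, 6 with bright-spot scaling and 0 with the processed signal, offset 16, median scaling, cyclic loess, plain probe means, the authors' table, either slide, either t-test or the variance trend, where 7 to 15 had an unadjusted p under 0.05 in the first 3 of these. Genes called there numbered 338 (15 arrays), 1 (processed signal), 0 (median, 6624 unadjusted), 1 (cyclic loess), 161 (dim probes left out), 12564 (bright spots), 176 (slide term), 1 and 6 (slides), 5 and 1 (t-tests) and 59 (trend). With 15 arrays 2 of the 8 isozyme pairs passed in G against T and 1 in G against C. Median scaling turned Pgk1 (0.39), Ldha (0.95), Pgd (0.16), Gbe1 (0.45), and Ttr (0.18) in T against C, and Pgd (0.20) and Gbe1 (0.44) in G against C. Bright-spot scaling turned Pfkfb4 (-0.46), Pygb (-0.28) and Emr1 (-0.44) in T against C. The cause of these shifts was not tested.

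With the replicate number as a block, 4, 0 and 0 members and 278, 6 and 50 genes were called in the 3 comparisons, in the order above. Same-numbered mice did not pair: the 10 correlations of their deviations ran from -0.314 to 0.254, with 4 over 0.1.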
